A study of Mus musculus with 17 samples.

Results

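Genes of the cytosolic ribosomal proteins were described across 17 expression arrays of sorted mouse bone marrow cells. A gene belonged to the set when a probe set carried a single gene symbol beginning with Rpl or Rps and a digit, or the symbol Rpsa, Rplp0, Rplp1 or Rplp2. Pseudogenes and the S6 kinases were left out, and the brightest probe set stood for each gene. The rule gave 50 genes on 106 of the 45101 probe sets, and 49 of them passed the filter on dim probe sets and were tested among 14245 genes. Of these 49, 42 encode core proteins (20 of the large subunit, 2 of its acidic stalk and 20 of the small subunit) and 6 are paralogs or like-named copies (Rpl3l, Rpl7l1, Rpl22l1, Rpl39l, Rps4l and Rps27l). The last, Rps19bp1, encodes a protein that binds Rps19 and is not part of the ribosome. Rpl3, Rpl5, Rpl10, Rpl36a, Rplp1, Rpl10l and Rpl36al were not analysed here, because no probe set carried one of these symbols alone.

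The arrays fall into 5 groups, and all cells came from femurs and tibias. In batch 1, GPI-negative and GPI-positive cells were sorted from the marrow of Pig-a knock-out mice, with 3 arrays each. In batch 2, 4 arrays hold GPI-negative cells of C57BL/6 mice that received enriched Pig-a knock-out marrow (KO-grafted mice), 3 hold GPI-positive cells of C57BL/6 mice that received wild-type marrow (WT-grafted mice), and 4 hold GPI-positive cells of wild-type C57BL/6 mice. GPI is the glycosylphosphatidylinositol anchor that tethers some proteins to the cell surface, and Piga is needed for the first step of its synthesis. Cells were separated with fluorescent antibodies to CD24, CD48 and Gr-1. Knock-out donor marrow was held for 30 minutes in 10 nM aerolysin, a toxin that lyses cells with GPI-anchored proteins, before transfer into mice given 9 Gy of irradiation. The labels give these treatments for the knock-out graft only, so between the recipients the effect of GPI status and that of the graft cannot be told apart. The sources used here give neither ages nor the promoter or cell type in which Pig-a was deleted. The arrays are titled as biological replicates with no animal named, and p-values therefore measure only the spread among them, which may be technical. As a check of the labels, the log10 value of Piga averaged 0.61 ± 0.05 in GPI-negative and 1.22 ± 0.09 in GPI-positive knock-out cells (SD, n = 3 each). It averaged 0.11 ± 0.09 in KO-grafted mice (n = 4), 1.20 ± 0.03 in WT-grafted mice (n = 3) and 1.22 ± 0.03 in wild-type cells (n = 4).

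A ribosome is built from a small subunit, which reads the mRNA, and a large subunit, which joins the amino acids. Each holds ribosomal RNA and a fixed set of proteins that are made in matched amounts. Many of their mRNAs start with a terminal oligopyrimidine (TOP) tract, through which the mTORC1 pathway and the RNA-binding protein Larp1 control their translation. Blood formation is sensitive to the supply of these proteins: in humans, loss of 1 copy of RPS19, RPL11 or several others causes Diamond-Blackfan anaemia, a failure of red cell production.

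Start-site sequences are given first because the TOP tract is the feature that most of these genes are known to share. RefSeq promoters of build GRCm38.p6 were found for 44 of the 50 genes. Each window runs from 60 bases before to 20 bases after the annotated start. Among runs of pyrimidines (C or T) on the gene's strand with a base within 20 bases of the start, capitals mark the longest. It is marked where it holds at least 8 bases, and it may reach further out. Other runs stay in lower case. The following genes were higher in GPI-negative than in GPI-positive knock-out cells, in the comparison described further on. Rps15 among them has no such run of at least 8 bases.
Rpl13a (chr7:45128726-45128805, minus strand): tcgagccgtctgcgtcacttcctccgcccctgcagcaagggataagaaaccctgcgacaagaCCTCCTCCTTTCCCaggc
Rpl27a (chr7:109519135-109519214, plus strand): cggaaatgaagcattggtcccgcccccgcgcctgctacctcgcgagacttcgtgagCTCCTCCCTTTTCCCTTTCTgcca
Rpl22l1 (chr3:28805448-28805527, plus strand): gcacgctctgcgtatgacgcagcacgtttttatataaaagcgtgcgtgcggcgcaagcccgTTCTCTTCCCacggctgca
Rps25 (chr9:44407654-44407733, plus strand): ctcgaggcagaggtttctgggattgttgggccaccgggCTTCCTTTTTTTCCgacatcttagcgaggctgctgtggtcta
Rps6 (chr4:86857348-86857427, minus strand): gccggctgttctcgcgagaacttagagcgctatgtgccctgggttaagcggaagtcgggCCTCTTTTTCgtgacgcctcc
Rps15 (chr10:80292371-80292450, plus strand): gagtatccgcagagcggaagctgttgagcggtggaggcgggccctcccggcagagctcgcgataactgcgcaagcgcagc

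For contrast, these genes were not called different in that comparison, and each of them holds a run.
Rplp2 (chr7:141447591-141447670, plus strand): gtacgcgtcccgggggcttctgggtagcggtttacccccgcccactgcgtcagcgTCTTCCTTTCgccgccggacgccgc
Rps27 (chr3:90213629-90213708, minus strand): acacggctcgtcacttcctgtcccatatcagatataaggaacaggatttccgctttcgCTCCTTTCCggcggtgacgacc
Rpl39 (chrX:37085203-37085282, minus strand): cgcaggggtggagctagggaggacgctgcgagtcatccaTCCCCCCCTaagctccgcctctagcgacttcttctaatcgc

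A run of at least 8 pyrimidines was found in 21 of 44 matched genes (47.7%), against 5619 of 27025 RefSeq promoters (20.8%). It was found in 8 of 17 genes called higher in GPI-negative knock-out cells (47.1%) and in 13 of 27 others (48.1%). The annotated start may differ from the start used in marrow, so a missing run says only that these letters are not in this window. A marked run need not be a TOP tract either: those of Rps25 and Rpl39 end before the annotated start. In the 300-base promoters (250 before to 50 after the start), CCGGAAG, the core of an ETS-family site, was searched on both strands and found in 21 of 44 genes (47.7%), against 9.12% of all promoters. AAGATGG, the core of a YY1 site, was found on either strand in 7 of 44 (15.9%), against 6.48% of all promoters. The searches were separate, and a CCGGAAG that runs into ATGG counts for both.

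Most ribosomal protein probe sets were bright. The median gene lay between the 99.6th and 99.7th percentile of its array's probe sets, and 37 of the 49 genes lay above the 90th. A value is the deposited one on a log10-like scale unless it is called a log2 difference. Because the sorted values of all arrays in a batch are identical, with a largest difference of 0, a value says where a gene ranks on its array. Levels of different probe sets are not compared, since each has its own response.

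The mean over the 49 genes was 2.440, 2.445 and 2.450 on the GPI-negative knock-out arrays, against 2.373, 2.364 and 2.377 on the GPI-positive ones. These groups did not overlap. In batch 2 it was 2.434, 2.381, 2.381 and 2.366 in KO-grafted mice, 2.400, 2.404 and 2.403 in WT-grafted mice, and 2.367, 2.356, 2.384 and 2.356 in wild-type cells. Replicate 1 of the KO-grafted mice lay above every other array of its batch, while the other 3 lay below the WT-grafted mice.

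**Figure D1:**
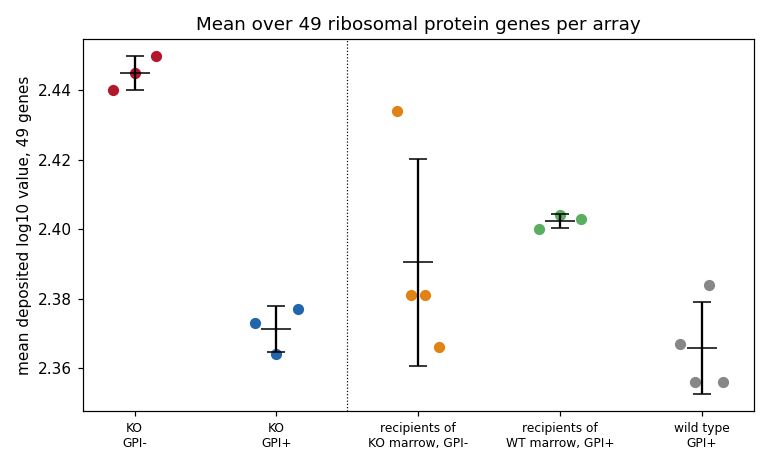
Mean deposited log10 value over the 49 ribosomal protein genes for each array (points), with the group mean and SD (bars); batch 1 is left of the dotted line and batch 2 right of it. The 3 GPI-negative knock-out arrays lie between 2.440 and 2.450, above the GPI-positive ones at 2.364 to 2.377, and 1 array of KO-grafted mice stands apart at 2.434.

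In knock-out marrow, 17 of the 49 genes were higher in GPI-negative than in GPI-positive cells and 0 were lower (limma, adjusted p under 0.05). Over all 14245 genes, 14.8% were called higher and 14.8% lower. The log2 differences ran from -0.48 to 0.72 with a median of 0.27, against -0.006 over all genes, and 38 of 49 were above 0. At an unadjusted p under 0.05, 24 were higher and 1 lower, against 2758 higher and 2769 lower of all 14245 genes. The 2 groups of arrays did not overlap for 27 genes in the higher direction and 4 in the lower, where all genes gave 22% and 21.2%. Called genes came from the large subunit (7 of 20), the small subunit (9 of 20) and the paralogs (1 of 6), and from the stalk came 0 of 2. Of the 37 genes above the 90th percentile 14 were called, with a median log2 difference of 0.29. Of the 12 dimmer genes 3 were called (Rpl12, Rps25 and Rpl27a), with a median of 0.10. The 17 were Rpl10a, Rpl11, Rpl12, Rpl13a, Rpl19, Rpl22l1, Rpl27a, Rpl37a, Rps3, Rps4x, Rps6, Rps15, Rps19, Rps24, Rps25, Rps26 and Rpsa.

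**Figure D2:**
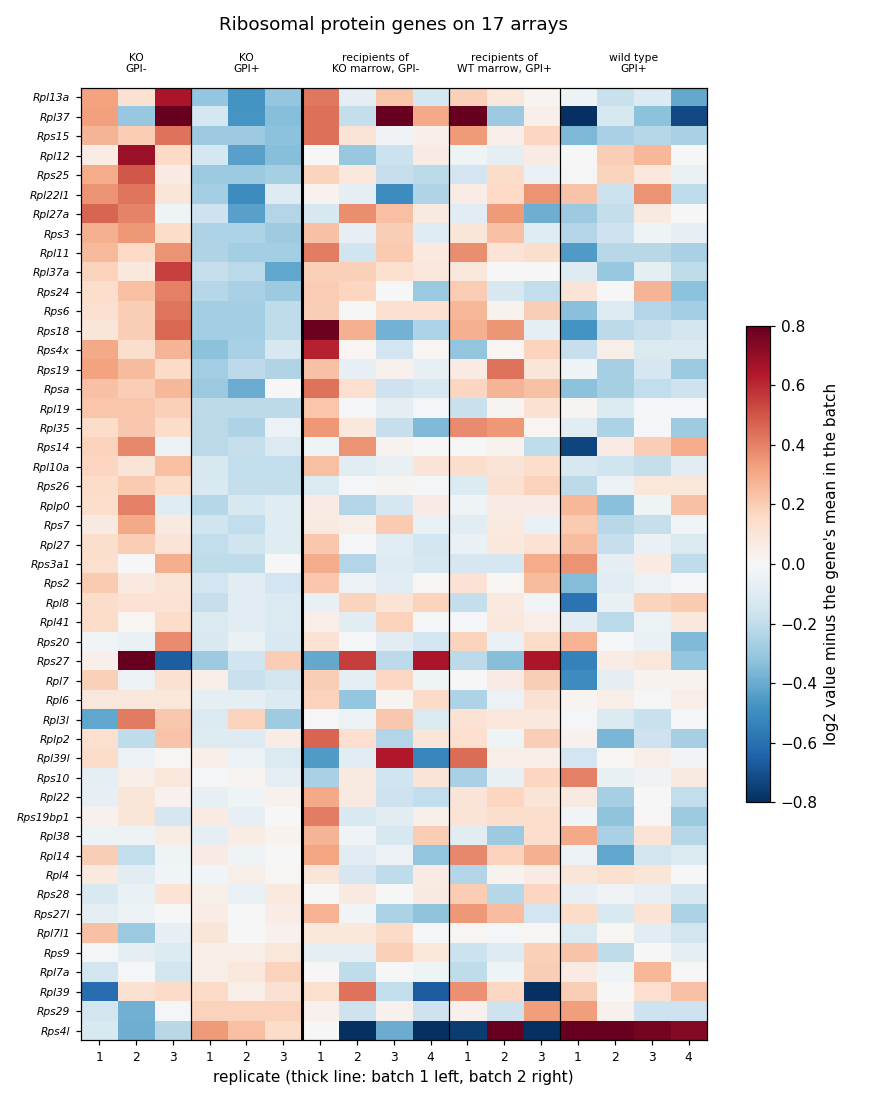
Log2 value of each of the 49 genes on each array, less the gene's mean in its batch (colour); rows run from the largest to the smallest difference in knock-out marrow, and the thick line parts batch 1 (left) from batch 2 (right). The upper rows are red in GPI-negative and blue in GPI-positive knock-out cells, and Rps4l in the last row is high in wild-type cells and in replicate 2 of the WT-grafted mice.

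The count rests on how the GPI-positive knock-out arrays are treated. They lay closer together than any other group: the median SD over the 49 genes was 0.116 on the log2 scale in GPI-negative and 0.048 in GPI-positive knock-out cells, against 0.178, 0.152 and 0.152 in batch 2. When the 3 GPI-positive arrays were treated as 1 averaged sample (added with the data in view), only Rpl13a and Rps15 passed, and 835 genes were higher and 817 lower over all genes. With them averaged, the share of the 49 genes called higher was below that over all genes. Without GPI-positive replicate 2 the count was 11 genes, against 1677 over all genes.

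Rpl13a, a large-subunit protein, had values of 3.16, 3.10 and 3.26 in GPI-negative and 2.97, 2.92 and 2.97 in GPI-positive knock-out cells. No GPI-positive array reached the lowest GPI-negative one. The log2 difference was 0.72 ± 0.15 (SE of the fit, here and below), a 1.64-fold change with adjusted p = 0.00099, and it was the highest of the 49. All 4 of its probe sets were higher, by 0.49 to 0.72.

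Rps15, a small-subunit protein close to the decoding site, had values of 2.78, 2.76 and 2.83 in GPI-negative and 2.61, 2.61 and 2.60 in GPI-positive knock-out cells. It rose by 0.62 ± 0.12 (adjusted p = 0.00041), and a second probe set rose by 0.64. In both genes the groups stood apart on every array.

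Rpl12, which sits at the base of the stalk, had 1.21, 1.40 and 1.24 in GPI-negative and 1.15, 1.06 and 1.09 in GPI-positive cells. The difference was 0.62 ± 0.14 (adjusted p = 0.0025), and 1 GPI-negative array lay well above the others. Rps25, a small-subunit protein used in internal initiation on some viral RNAs, had 1.40, 1.46 and 1.33 against 1.22, 1.22 and 1.23 in GPI-positive cells (0.58 ± 0.13, adjusted p = 0.0016). In neither gene did the groups overlap. The probe sets of Rpl12 and Rps25 were dim for this set, at percentiles of 82.3 and 85.1 on average.

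Rpl22l1 is the paralog of Rpl22, which represses it. Its values were 2.5, 2.52 and 2.42 in GPI-negative and 2.31, 2.24 and 2.36 in GPI-positive knock-out cells, a log2 difference of 0.57 ± 0.16 (adjusted p = 0.0095). The call was lost without GPI-positive replicate 2. Rpl22 itself, which in mice is needed for the development of most T cells, had 2.81, 2.86 and 2.84 in GPI-negative and 2.81, 2.82 and 2.84 in GPI-positive cells on its brightest probe set (0.03 ± 0.13, adjusted p = 0.90). Its 2 other probe sets were called higher, the larger by 0.67, so the probe sets of Rpl22 disagree.

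Rpl27a, of the large subunit, had 1.65, 1.63 and 1.5 in GPI-negative and 1.46, 1.38 and 1.44 in GPI-positive cells (0.55 ± 0.17, adjusted p = 0.018). Its call was lost without GPI-negative replicate 1, GPI-negative replicate 2 or GPI-positive replicate 2. Its probe set too was dim for this set, at a percentile of 89.3 on average. Rps6, the small-subunit protein that S6 kinases phosphorylate when growth signals are present, had 1.5, 1.52 and 1.59 against 1.38, 1.38 and 1.40 in GPI-positive cells (0.49 ± 0.11, adjusted p = 0.0014). This probe set of Rps6 was also dim for this set, at a percentile of 90.2 on average. Averaging it with the second, still dimmer probe set of Rps6 gave 0.19 (adjusted p = 0.17). Rpl37a rose by 0.52 ± 0.12 (adjusted p = 0.0017) on its brightest probe set, with 3.06, 3.03 and 3.17 against 2.95, 2.94 and 2.88 in GPI-positive cells, but by 0.18 (adjusted p = 0.19) on the probe set whose name does not mark possible cross-matching.

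Human genes of Diamond-Blackfan anaemia have 13 mouse counterparts here, of which 4 were higher and 0 lower, where 14.8% of all genes were called in each direction: Rpl11, Rps19, Rps24 and Rps26. Rps19, a small-subunit protein and the gene most often altered in that disease, had values of 2.82, 2.80 and 2.77 in GPI-negative and 2.64, 2.66 and 2.65 in GPI-positive knock-out cells (0.48 ± 0.12, adjusted p = 0.0034). Rpl11, which with Rpl5 binds Mdm2 and so stabilises p53, had 2.63, 2.60 and 2.66 against 2.48, 2.47 and 2.47 in GPI-positive cells (0.53 ± 0.13, adjusted p = 0.0029). In both, the lowest GPI-negative array lay above the highest GPI-positive one. Rps24 differed by 0.51 and Rps26 by 0.32, and the 13 genes had a median of 0.29.

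Further small-subunit genes with other roles were also called. Rps4x, encoded on the X chromosome, had 3.13, 3.08 and 3.12 in GPI-negative and 2.94, 2.96 and 3.0 in GPI-positive cells (0.48 ± 0.16, adjusted p = 0.023), and its call was lost without any 1 of 4 batch 1 arrays. Rpsa, which also occurs at the cell surface as a laminin receptor, had 3.02, 3.01 and 3.03 against 2.86, 2.83 and 2.95 in GPI-positive cells (0.45 ± 0.14, adjusted p = 0.016), and it did not pass without GPI-positive replicate 1 or 2. Neither group pair overlapped.

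The stalk recruits the elongation factors. Its gene Rplp0 had 3.20, 3.28 and 3.13 in GPI-negative and 3.09, 3.12 and 3.13 in GPI-positive knock-out cells (0.30 ± 0.15, adjusted p = 0.14). Rplp2 had 3.28, 3.18 and 3.31 against 3.21, 3.21 and 3.26 in GPI-positive cells (0.09 ± 0.15, adjusted p = 0.71). The arrays of both genes overlapped or met between groups.

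Of the genes below 0, Rps29, a small-subunit zinc-finger protein, had 3.56, 3.49 and 3.60 in GPI-negative against 3.66, 3.66 and 3.66 in GPI-positive knock-out cells (-0.35 ± 0.14, adjusted p = 0.070). It ranked 5th, 7th and 4th from the brightest probe set on the GPI-negative arrays and 3rd on each GPI-positive one, so few steps of the scale lie above it. Its probe sets disagree: another was lower by 0.51 and 1 more differed by 0.29 (adjusted p over all probe sets 0.060). Rps4l, a gene named for its likeness to Rps4x, had 0.76, 0.68 and 0.73 against 0.90, 0.87 and 0.84 in GPI-positive cells (-0.48 ± 0.32, adjusted p = 0.29). Rpl7l1, a like-named relative of Rpl7, differed by -0.09 ± 0.11 (adjusted p = 0.60), although 1 of its other probe sets was lower by 0.40.

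Rpl37 and Rps18, picked after their values were seen, had wide errors in knock-out marrow, with log2 differences of 0.65 ± 0.29 (adjusted p = 0.10) and 0.48 ± 0.21 (adjusted p = 0.083). These are the brightest probe sets: of the 6 of Rps18, all lay above 0 and 2 dimmer ones were called higher, by 0.75 and 0.77, so its probe sets disagree. The remaining named genes did not pass either. Rps28, of the small subunit, had 3.21, 3.23 and 3.28 in GPI-negative and 3.26, 3.23 and 3.27 in GPI-positive cells (log2 difference -0.03 ± 0.11). Rps27 and its p53-induced paralog Rps27l differed by 0.18 ± 0.33 and -0.08 ± 0.15, and Rpl39 and its testis-enriched paralog Rpl39l by -0.22 ± 0.26 and 0.07 ± 0.22. Rpl3l, the striated-muscle paralog of Rpl3, differed by 0.14 ± 0.18, and Rps19bp1 by 0.001 ± 0.13. The probe sets of Rpl3l and Rpl39l lay below the middle of the arrays on average, at percentiles of 44.7 and 33.2. Those of Rps27 and Rpl39 lay at 67.5 and 75.2, below most of the set. Rps16 was left untested: its probe set read 0.10, 0.04 and 0.04 in GPI-negative and 0.18, 0.30 and 0.23 in GPI-positive knock-out cells, at the 11.2th percentile on average.

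Other probe sets of the same genes gave further values. Of 102 kept probe sets, 41 were higher and 2 lower in GPI-negative knock-out cells, where 12% and 13.4% of all kept probe sets were called; the 2 lower ones belong to Rpl7l1 and Rps29. Among the 53 that did not stand for their gene, 24 were higher and 2 lower. Of 21 genes with several probe sets, 12 had all of them on the same side of 0. Rpl7 had the widest range, from -0.06 to 1.5, and for Rpl27 it was 0.29 to 1.15; both were picked after their values were seen. Between the recipients 0 of the 102 probe sets were called in either direction (2.34% higher and 1.76% lower over all probe sets). In KO-grafted mice against wild type 10 were higher and 1 lower (4.2% and 3.97%). In WT-grafted mice against wild type 1 was higher and 0 lower (0.299% and 0.318%). It is a dimmer probe set of Rpl22 (0.69, limma adjusted p over all probe sets 0.014), higher in KO-grafted mice too (0.59, 0.0021). The other probe sets of Rpl22 were not called there, and Rpl11 had an adjusted p of 0.051 in WT-grafted mice in this fit. In the interaction described below 27 were positive and 0 negative (6.73% and 8.23%). Genes read by a probe set whose name marks possible cross-matching were called in 3 of 16 cases, against 8 of 17 and 6 of 16 for the other 2 kinds. Processed copies of ribosomal protein genes are common in the mouse genome, and their share of these signals was not tested.

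Cell type markers and array measures differed between the same groups. Of 12 T and NK cell markers 11 were tested and 11 were higher in GPI-negative knock-out cells, with a summed linear signal of 681 to 717 against 54 to 57 in GPI-positive cells; there Cd3e, Cd8b1 and Ncr1 lay below the array median. Of 9 B cell markers 7 were higher (summed signal of all 9, 601 to 774 against 326 to 340 in GPI-positive cells). Of 12 neutrophil markers 9 were lower (summed signal of all 12, 19538 to 20773 against 25288 to 25664). Of 8 macrophage markers 6 were lower, and of 6 plasma cell markers 1 was higher and 3 were lower. Of 9 progenitor markers 2 were higher, and of 9 erythroid markers 0 passed in either direction. Hybridisation controls read 7.75 to 8.38 on the log2 scale on the GPI-negative arrays and 5.83 to 6.32 on the GPI-positive ones. Their value rose by 0.86 to 0.99 per log10 of nominal concentration on the GPI-negative arrays and by 1.13 to 1.15 on the GPI-positive ones. The Gapdh 3′ minus 5′ log2 signal averaged -0.16 ± 0.13 in GPI-negative cells and -1.02 ± 0.02 in GPI-positive cells (SD, n = 3 each). The part of these differences in the ribosomal protein result was not tested. In bulk RNA, a change in the share of a cell type cannot be told apart from a change in RNA per cell.

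Between the recipients, 0 of the 49 genes were called higher and 0 lower in GPI-negative cells of KO-grafted mice relative to GPI-positive cells of WT-grafted mice, where 3.95% and 3.45% of all genes were called. The limma test gave 0 higher and 2 lower at an unadjusted p under 0.05, against 1439 higher and 1374 lower of all 14245 genes. The median log2 difference was -0.03, against -0.005 over all genes, and the differences ran from -0.39 to 0.19. The groups did not overlap for 0 genes in the higher direction (8.0% of all genes) and for 1 in the lower, Rpl22l1 (7.52%). Without replicate 1 of the KO-grafted mice, the array with the highest mean, Rpl14 and Rpl35, both of the large subunit, were called lower.

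**Figure D3:**
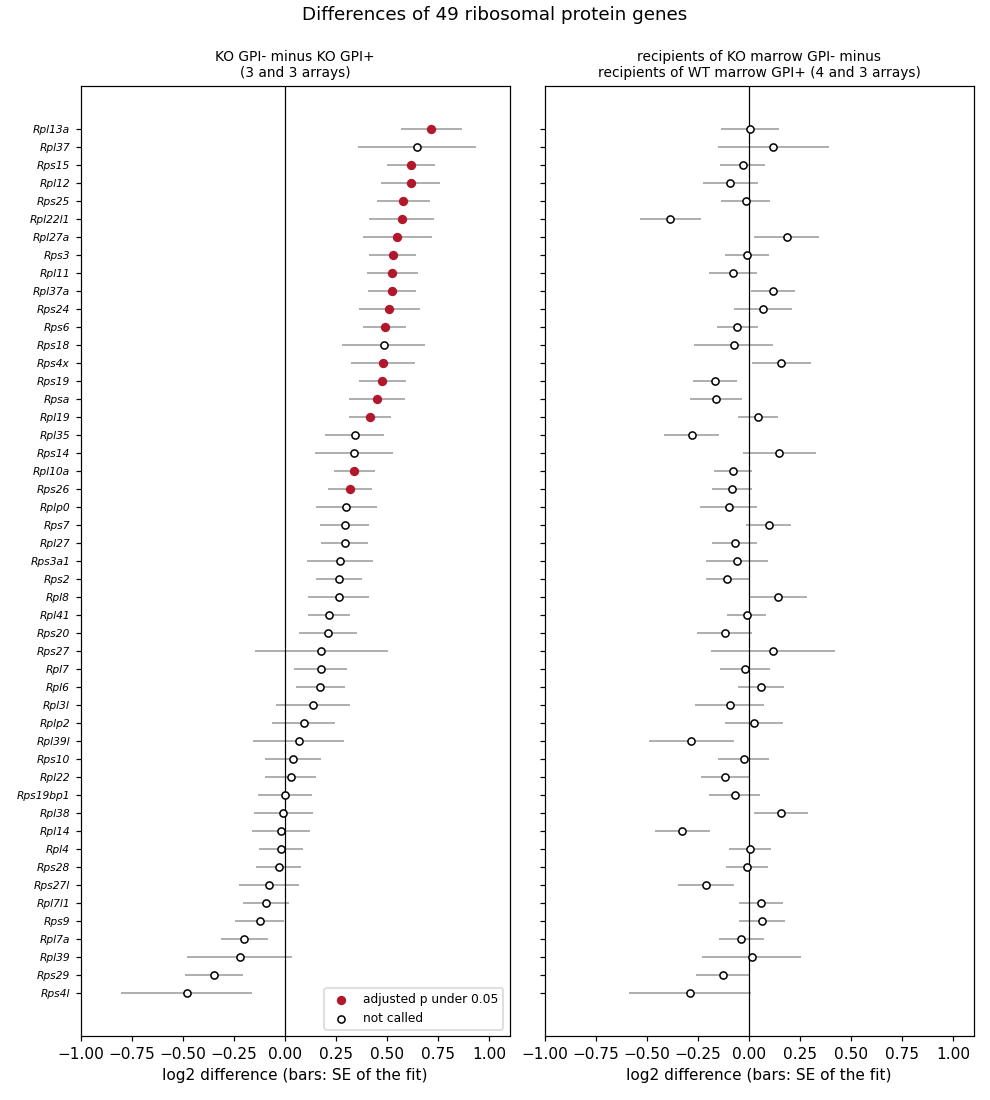
Log2 difference of each of the 49 genes with the SE of the fit (bars), GPI-negative minus GPI-positive knock-out cells on the left and KO-grafted minus WT-grafted mice on the right; filled points passed an adjusted p of 0.05. On the left 17 points are filled, all above 0; on the right 0 are filled and the points centre near 0, with Rpl22l1 lowest.

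Rpl22l1 had 2.22, 2.19, 2.06 and 2.14 in KO-grafted mice and 2.23, 2.26 and 2.32 in WT-grafted mice (-0.39 ± 0.15, adjusted p = 0.14). The groups come close at 2.22 and 2.23 without crossing. Rpl13a had 3.26, 3.11, 3.20 and 3.09 against 3.19, 3.16 and 3.14 in WT-grafted mice (0.01 ± 0.14, adjusted p = 0.99). Rps15 had 2.86, 2.76, 2.72 and 2.74 against 2.83, 2.74 and 2.78 (-0.03 ± 0.11, adjusted p = 0.93). For both genes the KO-grafted mice span the values of the other group. In these samples T and NK cell markers were higher too (11 of 11, summed signal 113 to 253 against 45 to 55), B cell markers passed in 0 of 9 cases, and 5 of 12 neutrophil markers were lower, with a summed neutrophil signal of 21805 to 23334 against 21012 to 22433. Of 8 macrophage markers 2 were higher and 5 lower, 3 of 9 erythroid markers were lower, 1 of 9 progenitor markers was higher and 0 of 6 plasma cell markers passed. Hybridisation controls were 6.93 ± 0.20 (n = 4) and 6.89 ± 0.16 (n = 3).

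The difference between these 2 contrasts was tested as an interaction, positive where GPI-negative cells stood higher in knock-out marrow than between the recipients. Of the 49 genes 12 were called with a positive interaction and 0 with a negative one, where 9.04% and 9.96% of all genes were called. Its median was 0.33, against 0.02 over all genes, and 40 of 49 genes had the larger difference in knock-out marrow. The 12 were Rpl10a, Rpl11, Rpl12, Rpl13a, Rpl22l1, Rpl35, Rps3, Rps6, Rps15, Rps19, Rps25 and Rpsa, and 11 of them were among the 17 above. Rpl22l1 had the largest interaction at 0.96 ± 0.22 (adjusted p = 0.0039), from 0.57 in knock-out marrow and -0.39 between the recipients. Next were Rpl13a at 0.71 ± 0.21 (adjusted p = 0.019) and Rpl12 at 0.71 ± 0.20 (adjusted p = 0.015). For Rpl13a it was 0.32 (adjusted p = 0.28) on the brightest probe set without a cross-matching mark, while 3 of its 4 probe sets were called, including the other unmarked one at 0.64. With the 3 GPI-positive knock-out arrays as 1 sample, only Rpl22l1 passed (adjusted p = 0.044), and without replicate 2 of the WT-grafted mice the count was 7. With those arrays averaged, the share of the 49 genes called positive was below that over all genes. Without that replicate of the WT-grafted mice, 1045 of all genes were called positive. Each contrast lies in a batch of its own, so batch cannot be told apart from the difference between knock-out mice and recipients.

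**Figure D4:**
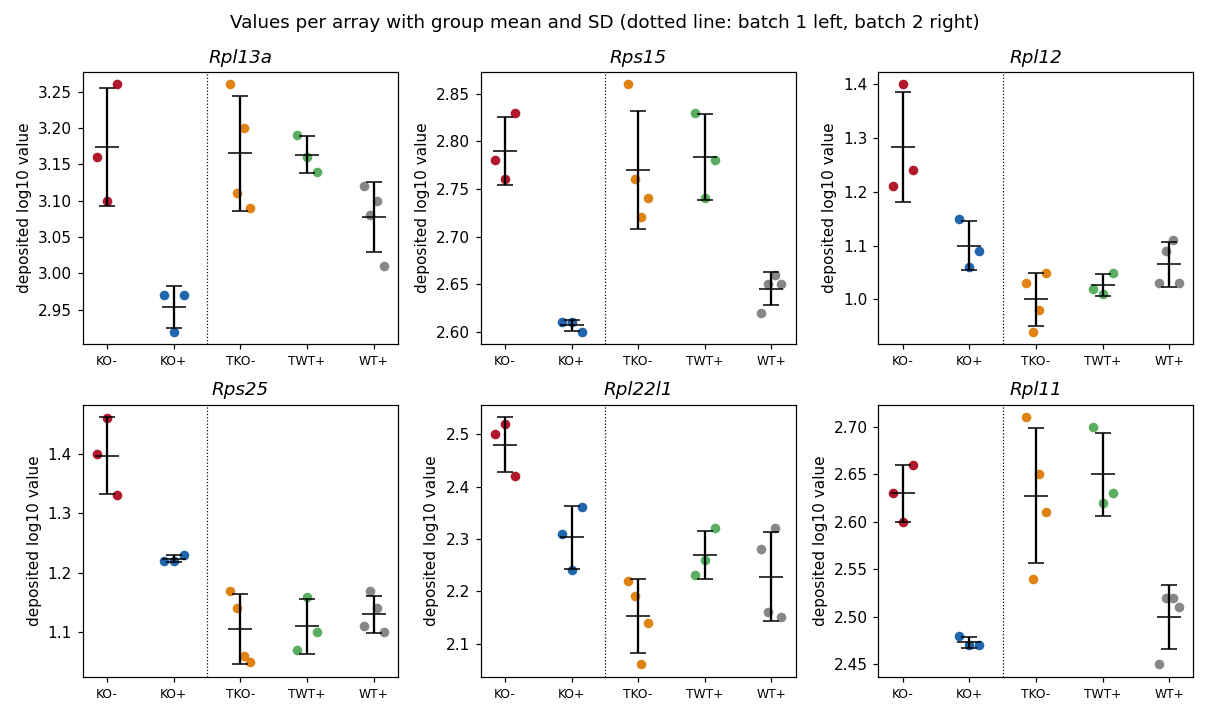
Deposited log10 value on each array (points) with the group mean and SD (bars) for 6 of the named genes; KO- and KO+ are GPI-negative and GPI-positive knock-out cells, TKO- KO-grafted mice, TWT+ WT-grafted mice and WT+ wild type, with batch 1 left of the dotted line. Rps15 and Rpl11 lie higher in both recipient groups than in wild-type cells, while Rpl12 and Rps25 do not.

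Against wild-type cells, KO-grafted mice had 5 genes called higher (Rpl11, Rpl37, Rpl37a, Rps6 and Rps15) and 1 lower (Rps4l), where 6.84% and 5.55% of all genes were called. The 5 are 10.2% of the 49 genes, not far above the rate over all genes. The median log2 difference was 0.11, against 0.02 over all genes. The groups did not overlap for 5 genes in the higher and 1 in the lower direction (9.32% and 7.04% of all genes). The count of higher genes was 3 when replicate 1 or 4 of either group was left out, with 741 to 927 over all genes. Recipients of wild-type marrow had 1 gene called higher than wild-type cells (Rpl11) and 0 lower, where 0.449% and 0.393% of all genes were called. The median was 0.12. At an unadjusted p under 0.05 there were 12 higher and 1 lower, against 1161 higher and 854 lower of all 14245 genes. The groups did not overlap for 15 genes in the higher and 0 in the lower direction (8.04% and 5.86% of all genes). These comparisons share the wild-type arrays, so their values are given side by side and were not set against each other.

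Rpl11 had 2.71, 2.54, 2.65 and 2.61 in KO-grafted mice, 2.70, 2.62 and 2.63 in WT-grafted mice, and 2.45, 2.52, 2.52 and 2.51 in wild-type cells. Every recipient array lay above every wild-type one. It was higher by 0.43 ± 0.11 (adjusted p = 0.011) in KO-grafted mice and by 0.50 ± 0.12 (adjusted p = 0.043) in WT-grafted mice. Leaving out 1 array ended the second call in 11 of 17 cases, and its difference stayed between 0.42 and 0.56.

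Rps15 had 2.62, 2.65, 2.66 and 2.65 in wild-type cells, below each recipient array given above. It was higher by 0.42 ± 0.10 (adjusted p = 0.0088) in KO-grafted mice, and it differed by 0.45 ± 0.11 (adjusted p = 0.060) in WT-grafted mice. Rps6 had 1.43, 1.37, 1.41 and 1.41 in KO-grafted mice, 1.45, 1.38 and 1.43 in WT-grafted mice and 1.27, 1.34, 1.30 and 1.29 in wild-type cells. It too lay higher on every recipient array, with differences of 0.34 ± 0.09 (adjusted p = 0.016) and 0.40 ± 0.10 (adjusted p = 0.061). Averaged over its 2 probe sets, Rps6 in KO-grafted mice differed by 0.06 (adjusted p = 0.77), and without wild-type replicate 1 by 0.31 (adjusted p = 0.056).

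Rpl37a differed by 0.32 ± 0.10 (adjusted p = 0.041) in KO-grafted mice against wild type, but by 0.04 (adjusted p = 0.86) on the probe set without a cross-matching mark, and leaving out any of 10 single arrays ended the call. Rpl37, of the large subunit, was chosen after its values were seen: it had 1.48, 1.29, 1.59 and 1.44 in KO-grafted mice, 1.62, 1.26 and 1.36 in WT-grafted mice, and 1.1, 1.31, 1.25 and 1.13 in wild-type cells. Its difference was 0.85 ± 0.25 (adjusted p = 0.030) in KO-grafted mice, with arrays that overlap. Rpl37 did not pass when KO-grafted replicate 1, 3 or 4 or wild-type replicate 1 or 4 was left out, nor when probe sets with a cross-matching mark were.

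Rps4l was the only gene called lower against wild type, in KO-grafted mice. It had 0.44, 0.14, 0.32 and 0.15 in KO-grafted mice, 0.21, 0.70 and 0.13 in WT-grafted mice, and 0.69, 0.72, 0.67 and 0.66 in wild-type cells. In KO-grafted mice every array lay below wild type, and in WT-grafted mice 1 of 3 matched it. The log2 differences were -1.41 ± 0.28 (2.65-fold, adjusted p = 0.0017) and -1.12 ± 0.30 (adjusted p = 0.081). Values below the array median of 0.386 lie where the scale flattens, so this fold is approximate.

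Against wild type, 9 of 9 erythroid markers were lower in KO-grafted mice (summed signal 109 to 509 against 738 to 1133), and 11 of 11 T and NK cell markers were higher. Of the other lists, 3 of 9 progenitor and 2 of 6 plasma cell markers were higher, 2 of 9 B cell and 2 of 12 neutrophil markers were lower, and of 8 macrophage markers 2 were higher and 5 lower. In WT-grafted mice 1 of 9 erythroid markers was lower, and the summed signal of all 9 was 324 to 492 against 738 to 1133. There 0 T and NK, B cell or progenitor markers passed, while 2 neutrophil markers and 1 plasma cell marker were higher and 1 macrophage marker was lower. The Gapdh 3′ minus 5′ log2 signal was -0.68 ± 0.30 in KO-grafted mice (n = 4), -0.63 ± 0.22 in WT-grafted mice (n = 3) and -0.93 ± 0.06 in wild-type cells (n = 4). Hybridisation controls were 6.53 ± 0.39 in wild-type cells, against 6.93 ± 0.20 in KO-grafted and 6.89 ± 0.16 in WT-grafted mice. Per log10 of nominal concentration they rose by 1.20 to 1.27 in wild-type cells. In KO-grafted mice they rose by 1.17 to 1.19, and in WT-grafted mice by 1.14 to 1.17. The part of these markers and array measures in the ribosomal protein differences was not tested.

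**Figure D5:**
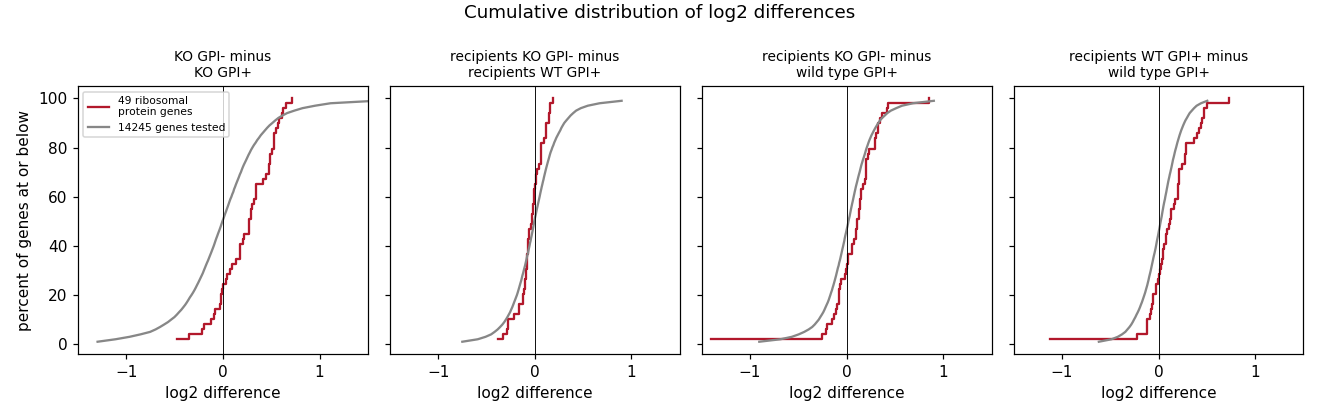
Cumulative percent of genes (vertical axis) at or below each log2 difference (horizontal axis) for the 49 ribosomal protein genes (red steps) and for all 14245 genes tested (grey, from the 1st to the 99th percentile), in 4 comparisons. The red curve lies to the right of the grey one in knock-out marrow, with medians of 0.27 and -0.006, and close to it between the recipients, with medians of -0.03 and -0.005.

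Genes that work with the ribosome were taken from lists of general knowledge, and background rates are those given for each comparison above. Of 25 translation factors and related TOP genes, 21 were tested, and in knock-out marrow 13 were higher and 0 lower in GPI-negative cells, with a median log2 difference of 0.35. Eef1d, a subunit of the factor that recharges eEF1A, differed by 0.81 ± 0.13, Eef2, the translocation factor, by 0.75 ± 0.12, and Npm1, a nucleolar chaperone, by 0.59 ± 0.15. Of 33 ribosome biogenesis genes tested, 13 were higher and 0 lower, with a median of 0.34. The largest were those of Nop56, a core protein of box C/D snoRNPs (1.05 ± 0.13), Tsr1, an assembly factor of the small subunit (1.04 ± 0.13), and Nip7, which acts in pre-rRNA processing (0.74 ± 0.13). The same cell markers and array measures differ beside these lists.

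A further list held regulators of transcription, growth and translation and genes of the p53 response. Of its 13 genes tested, 2 were higher and 2 lower in GPI-negative knock-out cells. The 2 higher ones are 15.4% of the 13, near the 14.8% called over all genes in each direction. Myc, a transcription factor that drives ribosome production, was higher by 0.79 ± 0.15, and Larp1 by 0.48 ± 0.12. Mdm2, the p53 ligase that Rpl11 binds, was lower by 0.60 ± 0.13, and Eif4ebp1, an inhibitor of cap-dependent initiation, by 0.33 ± 0.12. Between the recipients, Eif4a2 of the translation factors was called (0.38 ± 0.11, adjusted p = 0.044), with 0 biogenesis genes and 0 genes of the further list. Against wild type, KO-grafted mice had Eef2 (0.35 ± 0.11) and Nob1, an endonuclease of small-subunit maturation (0.43 ± 0.11), called higher, and Rps6kb2, an S6 kinase, lower (-0.37 ± 0.11). The interaction was called positive for 8 translation factors, 11 biogenesis genes and Myc, and negative for Mdm2. It was largest for Eef1d (0.97 ± 0.18) and Npm1 (0.84 ± 0.20) among the factors, and for Nop56 (1.26 ± 0.17) and Tsr1 (1.03 ± 0.18) among the biogenesis genes, followed there by Gnl3, a nucleolar GTP-binding protein (1.00 ± 0.20). For Myc it was 0.75 ± 0.21 and for Mdm2 -0.59 ± 0.18.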

How the data were processed

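The series' value table was used as deposited by the authors: log10-like values per probe set of an Affymetrix mouse array, normalized within each batch. GCOS 12 is named in the submitters' processing notes. Background correction, probe summary and log base are unstated there; base 10 was read from the hybridisation controls, whose value rose by 0.86 to 1.27 per log10 of nominal concentration. Values were converted to log2 and array medians, 0.515 in batch 1 and 0.386 in batch 2 (log10), were set equal. The design had allowed for log2 values, and the log10 values were converted to fit it. Of 45101 probe sets, 64 controls were left out; 34945 carry 1 gene symbol and 932 several. Probe sets at or above the 40th percentile on at least 3 arrays were kept (32426), and the brightest stood for each of 14245 genes.

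One limma 3.58.1 fit in R 4.3.3 (lmFit, eBayes with an intensity trend) on all 17 arrays gave a mean for each of the 5 groups, leaving 12 residual degrees of freedom; each contrast compares groups of 1 batch, and the interaction compares contrasts of both. Adjustment was Benjamini-Hochberg across the 14245 genes, with a threshold of 0.05. The median SE was 0.154, 0.144, 0.133, 0.144 and 0.211 in the 4 contrasts and the interaction. The number of arrays limits the precision. The method was tested on simulated data with the same spread for every gene and group, unlike the group spreads given above.

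Members and gene lists were chosen with earlier results of these data known. Genes named are the 6 largest called differences without overlap per contrast, up to 5 in the rarer direction, the 3 brightest and 3 dimmest probe sets, up to 5 of the interaction, a fixed set of paralog pairs and genes of known roles, and the 3 largest called genes of each pathway list; others are said to be picked after their values were seen or complete a count. Alternatives changed the normalization, filter, probe set, variance model, block and arrays.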

Additional observations from a re-analysis of the deposited data

Results flagged for a closer look

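In wild-type cells, Rpl11 was lowest in replicate 1, at a log10 value of 2.45, with the other 3 arrays at 2.51 to 2.52. Its gap to the nearest array exceeded the 95% limit of Dixon's test. Chance flags about 1 in 20 groups; over the groups of 4 arrays of all 49 tested genes, 2 of 98 were flagged.

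For 9 named genes the contrast of GPI-negative and GPI-positive cells differed between knock-out marrow and the recipients by the interaction test of limma. The interaction on the log2 scale was 0.96 for Rpl22l1, 0.71 for Rpl13a, 0.71 for Rpl12, 0.65 for Rps15, 0.64 for Rps19, 0.61 for Rpsa, 0.60 for Rpl11, 0.60 for Rps25 and 0.54 for Rps6. With the GPI-positive knock-out arrays averaged into 1 sample, only Rpl22l1 of these passed, at an adjusted p of 0.044. The other 8 then had adjusted p-values of 0.083 to 0.15.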

How the results depend on the processing

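No direction reversed among the results recomputed. In knock-out marrow the higher count of 17 ranged from 11 to 20 when 1 array was left out, and it was 2 with the GPI-positive knock-out arrays averaged, a setting chosen after seeing the data in which the lone sample is assumed to vary like the other groups. With only batch 1 in the fit the higher count was 23 (1978 over all genes), and with averaged probe sets it was 21 (1896). It was 19 with probe sets without a cross-matching mark (1973) and 18 with quantile normalization (2122). Without 1 array, 1671 to 2139 of all genes were higher, against 2102 in the main fit. The lower count of 0 was 1 with cyclic loess (Rps29), with no filter (Rps16) and with averaged probe sets (Rpl7l1). It was 2 with only batch 1 in the fit (Rps29 and Rps4l), and 0 to 1 without 1 array. The interaction's higher count of 12 ranged from 7 to 16 without 1 array and was 1 with the averaged arrays; its lower count of 0 was 1 with no filter (Rps16). Between the recipients the higher count was 0 in every setting run, and the lower count was 0 to 2 without 1 array. Against wild type, the higher count in KO-grafted mice was 3 to 5 without 1 array, and 741 to 1128 over all genes. In WT-grafted mice the higher count of 1 was 0 with quantile normalization, no filter, the mean of probe sets, no trend, the replicate block, only batch 2 or the averaged arrays, 2 with probe sets without a cross-matching mark, 3 with the stricter filter, and 0 to 3 without 1 array; the lower count was 0 to 1. The cause of these changes was not tested, except that no filter adds Rps16. Over all genes, averaging the arrays gave 835 higher and 817 lower in knock-out marrow and 397 and 581 in the interaction. The comparison of WT-grafted mice with wild type gave 64 higher and 56 lower, against 32 and 27 with no trend, 38 higher with only batch 2, 21 and 24 with the averaged arrays, 24 and 21 with the block and 9 to 122 and 12 to 140 without 1 array. Between the recipients 285 to 667 were lower without 1 array, against 491.

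Replicate numbers are shared between groups but did not pair the arrays: correlations of same-numbered deviations ran from -0.18 to 0.098. With the replicate block, 16 genes were higher in knock-out marrow, 0 between the recipients, 4 in KO-grafted mice against wild type (1 lower), 0 in WT-grafted mice and 8 in the interaction. The same counts over all genes were 1964, 450, 833 (691 lower), 24 and 993.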
